A study of Mus musculus with 6 samples.

Results

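The Frizzled receptor family was followed across all of its 10 genes, Fzd1 to Fzd10. The members were taken by name: every probe that the platform's probe annotation assigns to a Frizzled gene symbol was used, which gave 19 probes for the 10 genes out of 19057 genes with a probe. Surface ectoderm (SE), the epithelium that covers the embryo, was compared with neural ectoderm (NE), the epithelium of the neural plate and tube. Both tissues were dissected at the forebrain level from wild-type CD-1 mouse embryos at embryonic day 8.5, after enzyme digestion and with tungsten needles, and RNA was hybridised to single-colour Illumina MouseWG-6 v2 BeadChips. There were 3 arrays for NE and 3 for SE. Each sample was a pool of embryos, with many more embryos in an SE pool than in an NE pool, so that an array gives a mean over embryos and the spread between arrays is one between pools.

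Frizzled proteins are multi-pass membrane receptors whose extracellular cysteine-rich domain binds Wnt ligands. Together with the co-receptors Lrp5 and Lrp6 and the cytoplasmic adaptor Dishevelled they stabilise β-catenin, and together with Vangl and Celsr proteins they align cells within the plane of an epithelium. In the head of the vertebrate embryo the first of these pathways is known for patterning the neural plate, and the second for neural tube closure. The authors of these data propose that the β-catenin pathway is needed for closure too. By sequence the mammalian receptors fall into the subgroups Fzd1, Fzd2 and Fzd7, then Fzd5 and Fzd8, then Fzd4, Fzd9 and Fzd10, and last Fzd3 and Fzd6.

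Between 18916 and 19402 of the 45281 probes were detected per array, that is, had a detection p under 0.05 against the negative control probes. The dissected tissues carried the markers of their labels: 7 of 7 tested surface ectoderm genes, such as Cdh1, Krt8 and Grhl2, were higher in SE, and 6 of 6 tested neural ectoderm genes, such as Sox2, Six3 and Rax, were higher in NE. Epcam and Pax6 were not detected on any array, and Sox1 and Cdh2 were not tested either. Rax, Lhx5 and Hesx1 were not detected on any SE array. They were tested only through their detection in NE, where they were higher. The requirement of detection on 3 or more arrays thus partly set the neural count. Markers of other tissues also moved with the comparison. All 8 tested genes of the 13 listed for cephalic mesenchyme were higher in SE, although the dissection protocol in the labels describes tissue free of it, and their summed normalised signal was 506 to 671 in NE and 2690.5 to 3483 in SE. Col1a1, Col1a2 and Foxc2 of that list were not detected on any array. For blood and endothelium 3 of 4 tested genes were higher in SE, namely the globin genes Hbb-bh1, Hba-x and Hbb-y. The sums were 700.2 to 1760.1 in NE and 3446 to 6070.5 in SE. The endothelial gene Tek did not pass (0.28, limma adjusted p = 0.202), and Kdr, Pecam1, Cdh5 and Tie1 were not tested. For neural crest 4 of the 5 tested genes of 7 listed were higher in SE, with sums of 3654 to 4491 in NE and 6610.2 to 7345 in SE. Foxd3 and Erbb3 of that list were not detected on any array. Sox9 of that list was higher in NE, with a log2 difference of -0.72 (limma adjusted p = 0.000471). For endoderm 3 of the 4 tested genes of 7 listed, namely Foxa1, Foxa2 and Spink1, were higher in NE. The sums were 573 to 804 in NE and 205 to 226 in SE. Foxa1 and Foxa2 were not detected on any SE array and were tested only through NE, which partly set this count. Apoa1 did not pass (-0.34, limma adjusted p = 0.137), and Sox17, Ttr and Afp were not tested. Whether the signal of Foxa1, Foxa2 and Spink1 came from endoderm was not tested. The part of these tissues in the Frizzled results was not tested.

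Of the 10 Frizzled genes, 3 were higher in NE, namely Fzd5, Fzd9 and Fzd3, and 1 was higher in SE, namely Fzd7. Fzd5 stood out by size, being 5.06-fold higher in NE, while the fitted differences of the other 3 were under 2-fold. Fzd2, Fzd4, Fzd6, Fzd8 and Fzd10 did not pass the test, and Fzd1 was not detected on any array and was not tested. The test was limma's moderated test on normalised log2 signals, with Benjamini-Hochberg adjustment of the p-values over the 19590 probes that were detected on 3 or more of the 6 arrays, and the brightest tested probe stood for a gene. A gene passed at an adjusted p under 0.05. Fzd9 met the detection filter only through NE, the tissue where it was higher, so the filter partly set its result. With detection required on all 6 arrays Fzd9 was not tested, and 2 Frizzled genes were higher in NE. Among all 10603 genes tested in this way, 21.6% were higher in NE and 18.7% were higher in SE, so that the share of tested Frizzled genes that passed in either direction, 44.4%, is close to the background and is no result about the family as a whole. In RNA from whole tissue pieces a smaller share of expressing cells and less RNA per cell cannot be told apart.

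**Figure D1:**
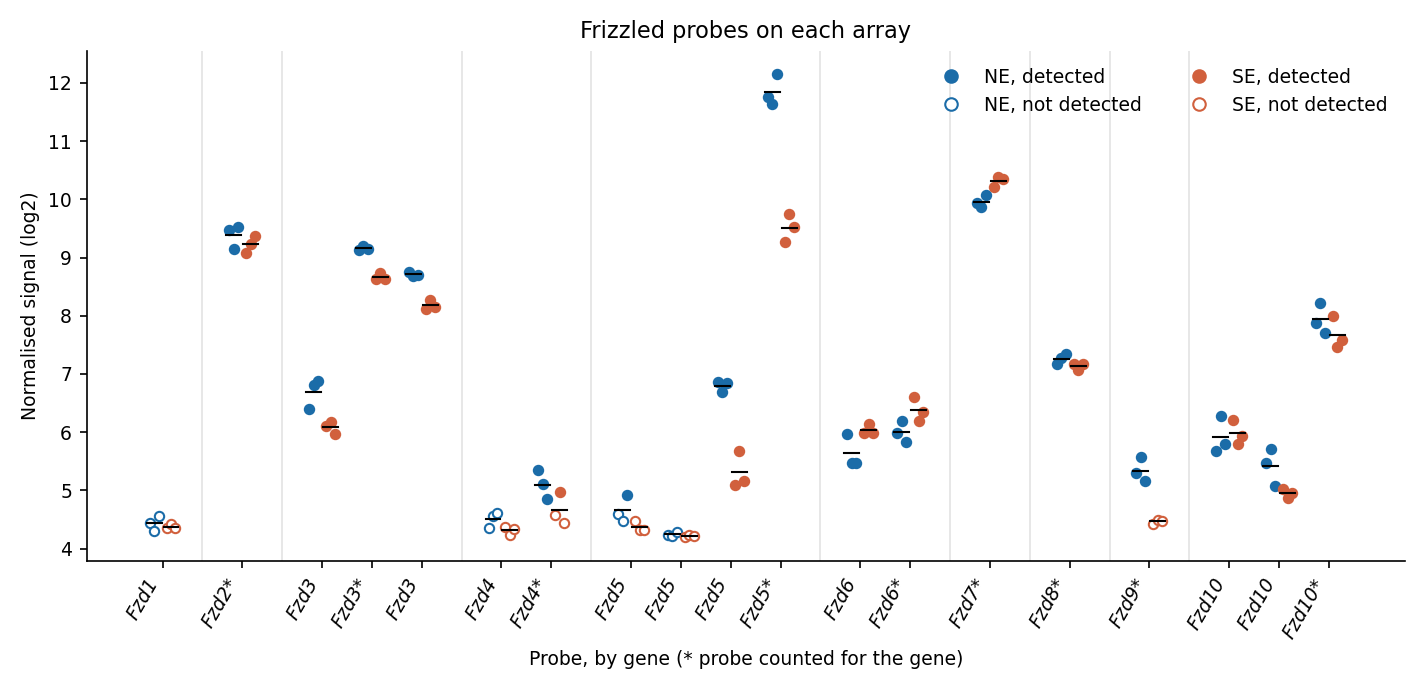
Normalised log2 signal (vertical axis) of each of the 19 Frizzled probes (horizontal axis, grouped by gene) on the 3 NE arrays (blue) and the 3 SE arrays (orange). Filled points were detected, open points were not, black bars are group means, and an asterisk marks the probe counted for its gene; the NE and SE points of the brightest Fzd5 probe lie furthest apart, and those of Fzd1 are open on all 6 arrays.

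Upstream sequences are shown for Fzd5 and Fzd9, the pair with the largest differences towards NE, and for Fzd7, the gene higher in SE. In these sequences the base composition can be read directly. They are the 250 bases before the annotated transcription start, written 5′ to 3′ on the strand of the gene, in lower case with each CG dinucleotide in capitals. They come from RefSeq on build GRCm38.p6, which held windows for 6 of the 10 members. Fzd5 lies at chr1:64737751-64738000 on the minus strand, Fzd7 at chr1:59481897-59482146 on the plus strand and Fzd9 at chr5:135251048-135251297 on the minus strand.
Fzd5: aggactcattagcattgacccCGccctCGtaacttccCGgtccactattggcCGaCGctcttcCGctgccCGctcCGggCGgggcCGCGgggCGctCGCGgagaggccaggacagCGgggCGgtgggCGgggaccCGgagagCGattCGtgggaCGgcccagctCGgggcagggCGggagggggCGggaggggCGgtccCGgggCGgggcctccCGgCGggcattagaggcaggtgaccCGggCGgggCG
Fzd7: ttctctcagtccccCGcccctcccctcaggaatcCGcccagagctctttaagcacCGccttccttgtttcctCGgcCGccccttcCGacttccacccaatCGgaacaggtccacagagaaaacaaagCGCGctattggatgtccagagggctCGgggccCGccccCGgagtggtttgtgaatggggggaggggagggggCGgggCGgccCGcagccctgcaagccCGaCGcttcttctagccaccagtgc
Fzd9: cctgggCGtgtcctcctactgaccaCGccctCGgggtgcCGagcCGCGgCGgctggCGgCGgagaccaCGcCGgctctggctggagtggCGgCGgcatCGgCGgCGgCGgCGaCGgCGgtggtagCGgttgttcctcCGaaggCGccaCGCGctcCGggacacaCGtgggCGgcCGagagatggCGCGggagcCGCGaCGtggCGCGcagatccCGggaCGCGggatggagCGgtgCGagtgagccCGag
The Fzd5 window held 32 CG dinucleotides, a number reached by 4.58% of the 32851 RefSeq windows of this length. The Fzd9 window held 42, reached by 0.865% of windows, and the Fzd7 window held 17, reached by 23.5%, where the median over all windows was 6. Of genes that did not pass, Fzd10 had 37 in its window, reached by 2.20%, and Fzd4 had 25, reached by 10.7%. The untested Fzd1 had 12. A relation of CG number to the direction of the difference was not tested. Motifs were searched on both strands, each counted by itself so that a base could belong to matches of more than 1 motif: the Tcf/Lef core CTTTGAT, present in 3.21% of all windows, the Grainyhead-like site AACCGGTT, in 0.116%, the AP-2 site GCCNNNGGC, in 13.7%, and the Sox core CATTGT, in 10.7%. No match to these letters was found in the windows of Fzd1, Fzd5, Fzd7 and Fzd9, while the AP-2 letters matched 2 times in the Fzd10 window and 1 time in the Fzd4 window.

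Fzd7, Fzd2 and Fzd1 form the subgroup that in mouse acts redundantly in closure of the palate and neural tube. The deposited signal of the Fzd7 probe ILMN_2907560 was 1029.8, 1016.7 and 1165.4 on NE arrays 1, 2 and 3 and 1220.8, 1367.5 and 1209.9 on SE arrays 1, 2 and 3. Every SE array was above every NE array. On the normalised log2 scale the means were 9.96 ± 0.10 in NE and 10.31 ± 0.08 in SE (SD, n = 3), a difference of SE minus NE of 0.36 with a 95% confidence interval of 0.16 to 0.56, or 1.28-fold (limma adjusted p = 0.0144). Fzd7 was the only Frizzled gene to pass towards SE, and it no longer passed when arrays were centred on their medians in place of quantile normalisation (0.27, limma adjusted p = 0.0656). The cephalic mesenchyme, blood and neural crest markers above also had higher sums on every SE array, and their part in the Fzd7 difference was not tested.

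Fzd2 gave signals of 762, 634 and 823 in NE and 571, 637 and 639 in SE with its single probe ILMN_2939666. The tissues overlapped, since SE arrays 2 and 3 lay above NE array 2. The log2 difference was -0.16 with an interval of -0.45 to 0.13 (limma adjusted p = 0.365), so that a change of more than 1.36-fold towards NE lay outside the interval. The single Fzd1 probe, ILMN_2683698, read between 52.1 and 63.8 over the 6 arrays with detection p-values of 0.172 to 0.779, and the median signal of undetected probes was 54.4 to 57.7 per array. Nothing can be said from it on Fzd1 beyond that it was not detectable with this probe.

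Fzd5, a receptor required for normal eye development in mouse, carried the largest difference of the family. Its brightest probe, ILMN_3161263, read 3539.5, 3418 and 4754 on NE arrays 1, 2 and 3 and 655, 905.5 and 705.5 on SE arrays 1, 2 and 3. The lowest NE array was thus several times above the highest SE array, and SE remained well above background. The log2 means were 11.85 ± 0.27 in NE and 9.51 ± 0.23 in SE (SD, n = 3), a difference of -2.34 with an interval of -2.72 to -1.96, or 5.06-fold higher in NE (3.89 to 6.58; limma adjusted p = 2.76e-05). Of all genes tested, 1.68% differed by more in either direction.

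The second informative Fzd5 probe, ILMN_2591703, was dim but detected on all 6 arrays. It read 156, 146 and 166 in NE and 74.3, 92.2 and 77.0 in SE, again without overlap. Its log2 difference was -1.49 with an interval of -1.85 to -1.12, or 2.80-fold (limma adjusted p = 0.000238), which is the same direction with a smaller size than the brightest probe. Of the other 2 probes, ILMN_1223759 was detected on NE array 3 alone and ILMN_2457239 on no array, and neither was tested. Probe positions within the transcript were not used here.

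Fzd8, the closest relative of Fzd5 and a partner of it in the developing optic cup of the mouse, gave nearly the same signal in both tissues. Its probe ILMN_2597578 read 186, 199 and 216 in NE and 184, 175 and 174 in SE, and the normalised NE values lay above the SE values by only 0.0024 at the nearest pair. The log2 difference was -0.13 with an interval of -0.32 to 0.06 (limma adjusted p = 0.248). The interval ends at 1.25-fold towards NE, beside the 5.06-fold of Fzd5 in the same samples.

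Fzd9, whose human counterpart lies in the region deleted in Williams syndrome, was detected in NE alone. Its probe ILMN_2620255 read 79.2, 89.5 and 79.4 in NE, each with a detection p of 0, and 57.5, 61.2 and 61.5 in SE, with detection p-values of 0.377, 0.262 and 0.317. No SE array was distinguishable from the negative controls, so the size is given as a bound on the normalised, background-corrected scale: Fzd9 was at least 1.43-fold higher in NE, from the NE mean against the higher of the lowest detected signal and the probe's own signal on each SE array. The means of the deposited signals, which still contain the background, had a ratio of 1.38. The fitted log2 difference was -0.87 with an interval of -1.14 to -0.61 (limma adjusted p = 0.000727), and it shrank to -0.37 without background correction. With any NE array left out, Fzd9 was detected on 2 arrays and could not be tested.

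Fzd4, the receptor of norrin in the retinal vasculature, was near the limit of detection. Its probe ILMN_2865248 read 80.7, 75.9 and 71.5 in NE, detected on all 3 arrays, and 62.3, 72.7 and 60.5 in SE, detected on array 2 alone. SE array 2 lay within the NE range. The log2 difference was -0.43 with an interval of -0.82 to -0.04 that is not adjusted for the number of probes (limma adjusted p = 0.0797), and it passed without SE replicate 2 (-0.59, limma adjusted p = 0.0312) or without NE replicate 3 (-0.55, limma adjusted p = 0.0459), where the numbering of NE arrays 2 and 3 is uncertain. The other Fzd4 probe, ILMN_1212935, was not detected on any array.

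Fzd10, known from the dorsal neural tube, had 3 tested probes that did not give the same answer. The brightest, ILMN_2976821, read 278, 351 and 265 in NE and 294, 217 and 218 in SE, with overlap, and its log2 difference was -0.26 with an interval of -0.67 to 0.14 (limma adjusted p = 0.279). ILMN_2670576, a dim probe, read 84.3, 94.2 and 77.1 in NE and 72.6, 70.5 and 72.7 in SE and differed by -0.46 with an interval of -0.82 to -0.10 (limma adjusted p = 0.0492), just past the threshold, and did not pass with the replicate number as a block (limma adjusted p = 0.0544). ILMN_2640796 read 91.6, 120 and 102 in NE and 114, 96.6 and 99.5 in SE, a difference of 0.07 (limma adjusted p = 0.789). Over the 3 probes no direction was shared.

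Fzd3, a receptor of planar cell polarity needed for axon tracts in mouse, was lower in SE with each of its 3 probes. The brightest, ILMN_2777437, read 607, 653 and 651.5 in NE and 436, 467 and 403 in SE. The arrays did not overlap, and the spread within each tissue was small, with log2 means of 9.16 ± 0.03 in NE and 8.67 ± 0.06 in SE (SD, n = 3). The difference was -0.49 with an interval of -0.66 to -0.32, or 1.41-fold higher in NE (limma adjusted p = 0.00154). ILMN_2801520 gave -0.53 (limma adjusted p = 0.00128) and the dimmer ILMN_2421436 gave -0.61 (limma adjusted p = 0.00999), and neither overlapped between the tissues.

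Fzd6, which in mouse acts with Fzd3 in neural tube closure and by itself orients hair follicles, differed the other way without passing. Its brightest probe, ILMN_3004386, read 103, 116 and 104 in NE and 138, 114 and 117 in SE, where the normalised value of SE array 2 fell just below NE array 2. The log2 difference was 0.38 with an unadjusted interval of 0.07 to 0.69 (limma adjusted p = 0.0599). The other probe, ILMN_2775016, read 102, 85.9 and 89.6 in NE and 103, 112 and 101 in SE and gave 0.40 (limma adjusted p = 0.0574). The interval of Fzd6 lies above 0 and that of Fzd3 below it, and under the alternatives tried the adjusted p of Fzd6 ranged from 0.0288 to 0.163.

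**Figure D2:**
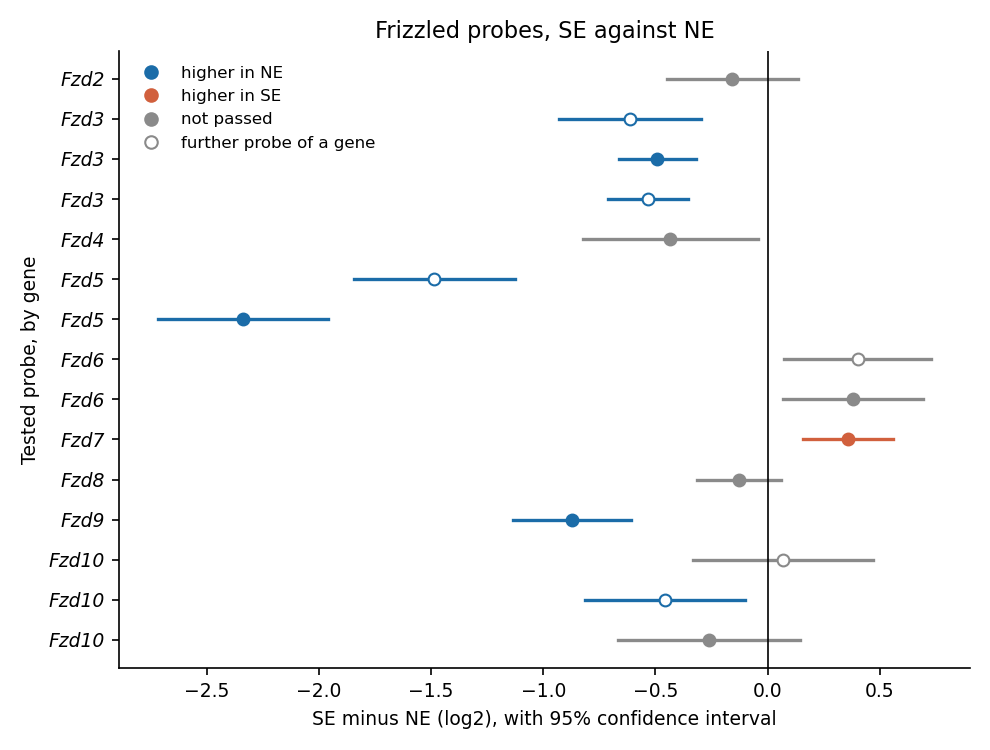
Difference of SE minus NE in normalised log2 signal (horizontal axis) with its 95% confidence interval for the 15 tested Frizzled probes (vertical axis, by gene). Blue marks probes higher in NE, orange those higher in SE and grey those that did not pass, and filled points are the probes counted for a gene; both Fzd5 probes and all 3 Fzd3 probes lie left of 0, and the Fzd7 interval lies right of it.

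By probe, the test was passed towards NE by 7 of the 15 tested Frizzled probes and towards SE by 1. Of all 19590 tested probes, 7310 passed in either direction, and their split by direction was not taken. By gene, 21.6% of all tested genes were higher in NE and 18.7% in SE. The NE count of Frizzled probes holds 3 probes of Fzd3 and 2 of Fzd5, so it counts these genes more than once. By gene, the arrays of the tissues did not overlap for 5 of the 9 tested members, namely Fzd3, Fzd5, Fzd7, Fzd8 and Fzd9, and 55.1% of all tested genes had arrays that did not overlap, so that this count is near the background. The median log2 difference over the 9 tested members was -0.26, beside -0.02 over all tested genes. The median size of the difference irrespective of direction was 0.38 for the members and 0.23 for all genes.

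**Figure D3:**
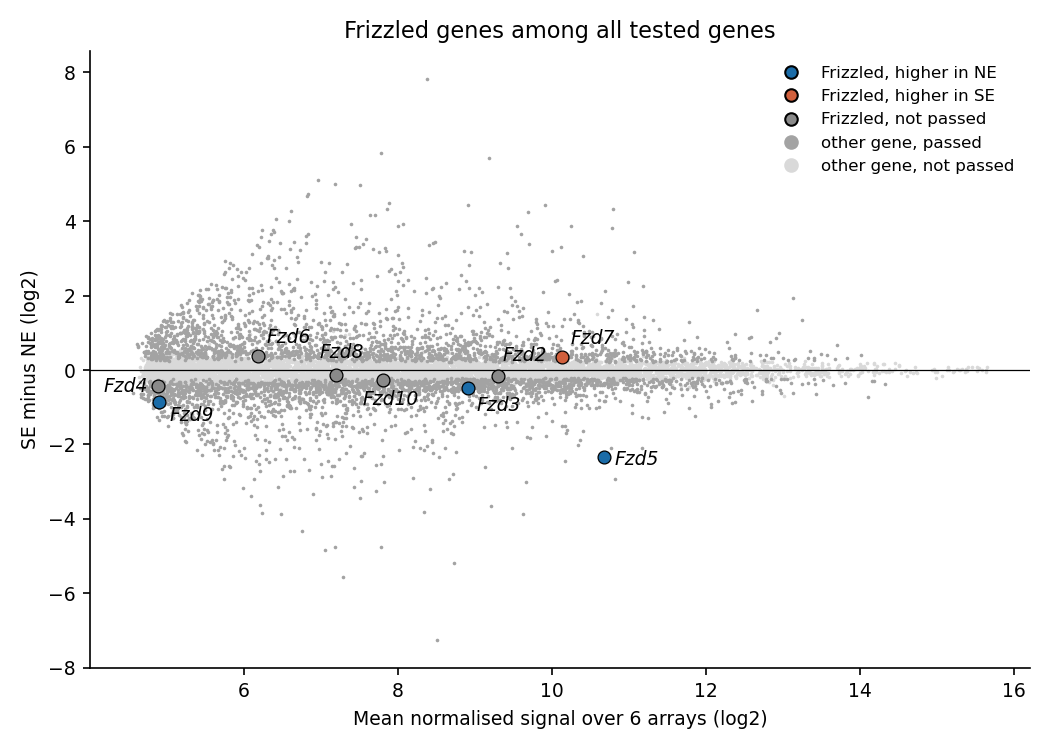
Difference of SE minus NE in log2 signal (vertical axis) against the mean normalised log2 signal over the 6 arrays (horizontal axis) for all 10603 tested genes, with the 9 tested Frizzled genes drawn large and named. Fzd5 at -2.34 lies outside the dense band of genes, while the other Frizzled genes lie between -0.87 and 0.38.

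For each member that passed, the genes with the most similar profile were found by the root mean square difference of log2 signals centred over the 6 arrays, among the 10602 other tested genes. Nearest to Fzd5 were Foxb1, a forkhead gene of the embryonic brain, at 0.10, with a difference of SE minus NE of -2.28, and Fam171b, at 0.16, with -2.31. Nearest to Fzd3 were Fancd2, a DNA repair gene, at 0.018 and the anchoring protein gene Akap9 at 0.020, with differences of -0.49 and -0.48. Nearest to Fzd9 were the fucosyltransferase gene Fut10 at 0.032 and Hid1 at 0.076, with -0.90 and -0.85, and nearest to Fzd7 were Rarres2, which encodes chemerin, at 0.031 and Nme3 at 0.035, with 0.34 and 0.39. With 6 arrays in 2 groups this measure follows chiefly the size of the difference between the tissues.

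The genes that act with Frizzled receptors were then described by role, from lists of 66 genes of which 38 were tested. The test was passed by 13 genes towards SE and by 12 towards NE, and 13 missed it, beside 18.7% and 21.6% of all tested genes. The lists are described by their counts, and nothing particular to them is read from these shares.

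All 10 tested Wnt ligand genes of 19 listed differed, 5 in each direction, with a median log2 difference of 0.02 that hides a range from -3.83 to 5.83. Wnt1 and Wnt8b were not detected on any SE array, nor Wnt9b and Wnt10a on any NE array. These genes met the detection filter only through the tissue where they were higher, so the filter partly set this count. Wnt6 read close to background in NE, where it was detected on 2 of 3 arrays, and its log2 means were 4.87 in NE and 10.70 in SE, a difference of 5.83 (limma adjusted p = 1.16e-07), while its mean deposited signals, background included, had a ratio of 23.5. The other tested Wnt6 probes, ILMN_2901765 and ILMN_2491759, were not detected in NE and gave log2 differences of 6.00 and 1.56, so that the direction was shared and the size was not. Wnt4 was higher in SE by 2.83 on the log2 scale, 3.51-fold by deposited signals, and was also detected on 2 of 3 NE arrays. In the other direction Wnt8b, a ligand of the embryonic forebrain, was not detected in SE and was at least 10.03-fold higher in NE on the normalised, background-corrected scale, with a ratio of 6.31 between the mean deposited signals, and Wnt3a was 5.96-fold higher in NE. The 5 ligands higher in SE were Wnt4, Wnt5a, Wnt6, Wnt9b and Wnt10a. The 5 higher in NE were Wnt1, Wnt3a, Wnt5b, Wnt7b and Wnt8b. The Wnt5a probes did not give the same answer. ILMN_2472917 differed by 1.11, but the dim ILMN_1245294, detected on all 6 arrays, differed by 0.015 (limma adjusted p = 0.915). Among the ligands not tested, Wnt2, Wnt3, Wnt7a, Wnt8a, Wnt9a, Wnt10b and Wnt11 were not detected on any array.

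Of the co-receptors and other Wnt receptors, 6 of 9 tested genes passed towards SE and 0 towards NE, with a median log2 difference of 0.66. Ror1 and Ror2, receptor tyrosine kinases that bind Wnt5a, were higher in SE by 1.18 and 0.74 on the log2 scale, Ror1 being detected on 1 of 3 NE arrays, with a ratio of 1.51 between its mean deposited signals. Reck and Tspan12, which act with Fzd4 in ligand-specific complexes on endothelial cells, were higher in SE by 0.97 and 0.94. A dimmer Reck probe, ILMN_2769877, differed by 0.35 and did not pass (limma adjusted p = 0.259). Fzd4 itself did not pass. Ryk and Ptk7 were also higher in SE. The cephalic mesenchyme and blood genes given above rose in SE beside this list as well, and their part in it was not tested. Lrp5 and Lrp6, the co-receptors of β-catenin signalling, differed by -0.12 (interval -0.42 to 0.18) and -0.0018 (interval -0.36 to 0.35) with their brightest probes. A dimmer Lrp5 probe, ILMN_1231731, detected on 1 of 3 SE arrays, differed by -0.55 (limma adjusted p = 0.00569), so the Lrp5 probes did not give the same answer. The Frizzled-related Hedgehog transducer Smo differed by -0.27 (limma adjusted p = 0.0512).

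Secreted proteins that share the Frizzled cysteine-rich domain, and so can bind Wnt ligands away from the membrane, were represented by Sfrp1 and Sfrp2. Sfrp1 was 5.42-fold higher in NE, with log2 means of 11.39 in NE and 8.96 in SE (limma adjusted p = 1.40e-06), and Sfrp2 was 1.81-fold higher in NE. Wif1, a Wnt inhibitor with another domain, differed by 0.06 and did not pass, and the other 4 of the 7 listed genes were not tested. For Sfrp1 and for Fzd5 the difference was thus of the same direction and of similar size, -2.44 and -2.34.

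Genes of Frizzled turnover and trafficking were mostly below detection: 4 of 12 were tested and 7, among them the ubiquitin ligase genes Znrf3 and Rnf43, were not detected on any array. Lgr5, a receptor of R-spondins, was higher in NE by 1.53-fold, and Shisa2, known in Xenopus to hold Frizzled receptors in the endoplasmic reticulum, by 1.47-fold. Rspo1 and Usp8 did not pass.

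Of the Dishevelled and planar cell polarity partners, 12 of 16 were tested, of which 3 passed towards NE and 2 towards SE, with a median log2 difference of -0.17. The atypical cadherin genes Celsr3 and Celsr2 were 4.71-fold and 3.14-fold higher in NE, although a second Celsr3 probe differed by only 0.07. Ankrd6, a Dishevelled-binding protein gene, was 1.52-fold higher in NE. Its other tested probes gave log2 differences of -0.26, -0.29 and -0.37, and only the last passed. Dact1 was higher in SE by 1.15 on the log2 scale, but it was detected on 1 of 3 NE arrays and its mean deposited signals had a ratio of 1.48, so the size depends on the background correction. Daam1 passed in the same direction, and its other tested probes gave 0.88, 0.54 and 0.14, of which the last did not pass. Dvl1, Dvl2 and Vangl2 did not pass, with log2 differences of -0.16, 0.03 and -0.13, each with an interval that included 0.

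**Figure D4:**
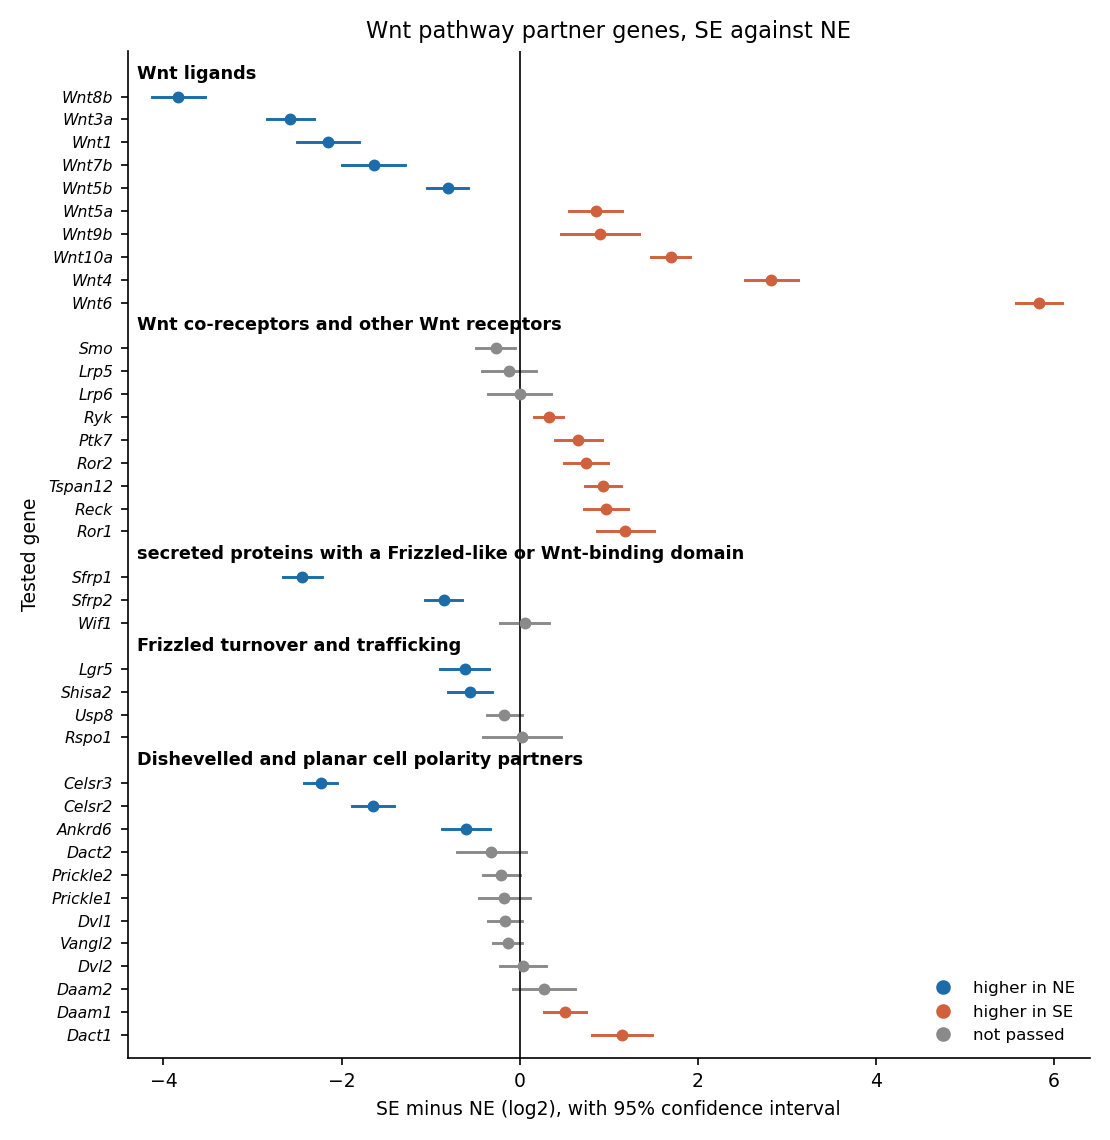
Difference of SE minus NE in normalised log2 signal (horizontal axis) with its 95% confidence interval for the 38 tested genes that act with Frizzled receptors (vertical axis), grouped by role. Blue marks genes higher in NE, orange those higher in SE and grey those that did not pass; ligands lie on both sides of 0, from Wnt8b at -3.83 to Wnt6 at 5.83, and the co-receptors and other receptors that passed all lie right of 0.

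**Figure D5:**
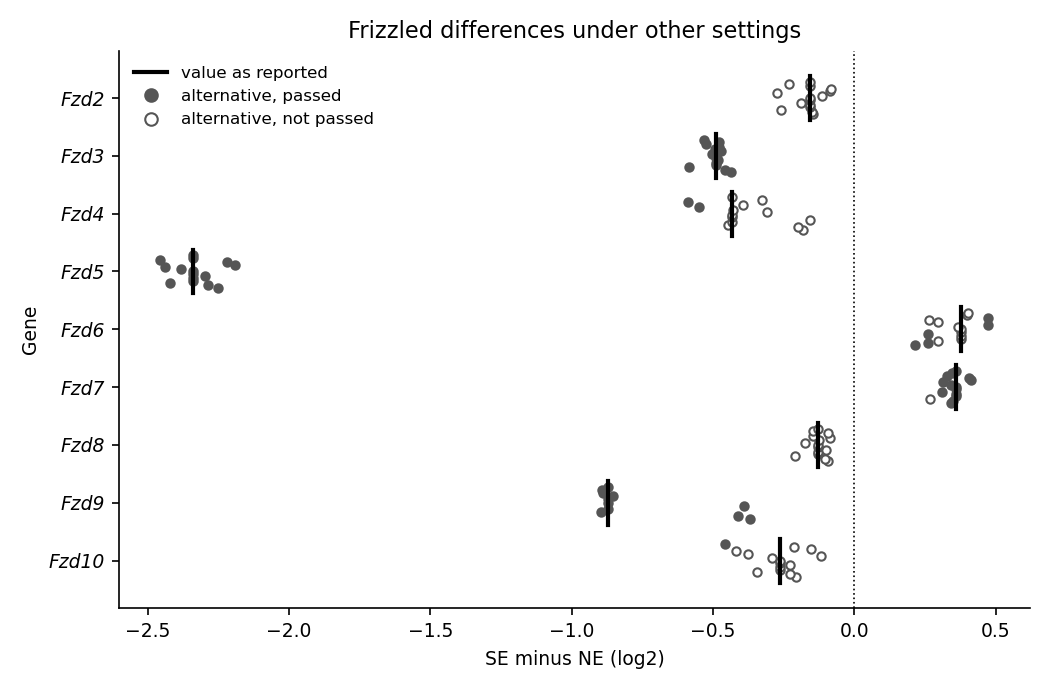
Difference of SE minus NE in log2 signal (horizontal axis) of the 9 tested Frizzled genes (vertical axis) under other processing settings and with each array left out. Black bars are the values as reported, and alternatives are filled where they passed and open where they did not; no gene crossed 0, and Fzd9 moved from -0.87 to -0.37 without background correction.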

How the data were processed

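Total RNA was amplified and labelled with biotin by the authors and hybridised, and signals were exported with BeadStudio. Its version was not stated. A deposited table that is not normalised gives, per probe and array, a linear signal intensity. Beside each intensity the authors deposited the detection p-value against negative controls. A further table of scaled intensities equals these signals times 1 constant per array and served as an alternative. From the signals, limma 3.58.1 (R 4.3.3) corrected background and normalised between arrays (neqc, offset 16). Probes detected (p under 0.05) on at least 3 of 6 arrays were fitted with lmFit and eBayes, SE minus NE, without a block. The fit was tested on simulated data.

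Members, lists and settings were chosen with earlier results of these data known. Named partner genes were, per list, up to 4 with the largest difference among those that passed; others were picked with their values in view. The authors' methods list an SE and an NE pool under each replicate number and compared the tissues within each number, with no test named; same-numbered arrays did not deviate together (r of -0.037 to -0.020 over probes), and a fit with the number as a block was run beside the fit without it. A heat map in the study shows NE arrays 2 and 3 the other way round. All SE against all NE is unaffected by this, whereas the block, these correlations and leaving out NE replicate 2 or 3 depend on it. Probe names came from the platform annotation (34885 probes with 1 symbol), and promoters from RefSeq. Protein sequences were not used here. Array number limits precision. Alternatives were no background correction, offset 50, median centring, detection on all 6 arrays or no filter, scaled values, no variance moderation, a replicate block, the probe with the smallest p, and leaving out each array. Plots used matplotlib 3.10.9.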

Additional observations from a re-analysis of the deposited data

How the results depend on the processing

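All 130 alternative values of the 9 tested Frizzled genes kept their direction, and 121 kept their side of the threshold. The exceptions were Fzd7, which no longer passed with median centring, and 8 values of Fzd4, Fzd6 and Fzd10 that newly passed. Each value rests on 1 probe per gene, so the Fzd10 probe ILMN_2640796, with a difference of 0.07, was not among them. Fits in which Fzd4 or Fzd9 could not be tested are not counted. The count of Frizzled genes higher in SE was 1; it became 2, with Fzd6 added, without background correction, with an offset of 50 and with the deposited scaled values, and 0 with median centring. With 1 array left out it ranged from 1 to 2. The count higher in NE was 3 and ranged from 2 to 4 with 1 array left out, Fzd9 being untested without any NE array and Fzd4 being added without SE replicate 2 or NE replicate 3. The partner genes higher in SE numbered 13, and 7 with detection on all 6 arrays, where 27 were tested; with 1 array left out they ranged from 11 to 13, and those higher in NE, 12, from 10 to 12. Median centring changed the split over all genes, from 1985 higher in SE and 2286 higher in NE to 1527 and 2767, and the median difference of all genes from -0.02 to -0.10; the cause was not tested. With the replicate number as a replicate block, 1 Frizzled gene passed towards SE and 3 towards NE, as without it, and of the further Frizzled probes the dim one of Fzd10 no longer passed. Correlations were -0.0084 to 0.040 between arrays of different numbers. The block and the fits without NE replicate 2 or 3 rest on a numbering of these arrays that is uncertain. Without the detection filter, Fzd1 differed by -0.06 (limma adjusted p = 0.746). Signals near background, as for Fzd1, Fzd4 and Fzd9, limit what a fold change can show.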

Other observations

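Fzd10os, a long noncoding RNA gene transcribed from the opposite strand beside Fzd10, differed between the tissues where the brightest Fzd10 probe did not pass. Its probe ILMN_2458053 read 85.8, 101 and 74.8 on NE arrays 1, 2 and 3 and 226, 187 and 171 on SE arrays 1, 2 and 3, all 6 detected and without overlap. The log2 difference of SE minus NE was 1.83 with a 95% confidence interval of 1.31 to 2.35 (limma adjusted p = 0.000546). A second Fzd10os probe, ILMN_1222542, was not detected on any array, so the difference rests on 1 probe. This gene was picked after its values were seen.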
